A study of Mus musculus with 11 samples.

Results

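The response of wild-type T cells to stimulation of CD3 and CD28 was measured by comparing 2 activated arrays with 3 naive arrays. These were the 5 wild-type arrays among the 11 of the series, taken by the genotype and activation state in their labels. All cells were T cells from the spleens of female C57BL6 mice aged 3 to 4 months, purified with magnetic beads that remove other cells (a Pan T cell kit), so CD4 and CD8 T cells were measured together. The activated cells were kept for 12 hours in RPMI-10 medium with anti-CD3 bound to the plate at 5 µg/ml and anti-CD28 in solution at 1 µg/ml, and the naive cells were taken unactivated. The other 6 arrays held naive and activated cells of C57BL6 crbn-/- mice, 3 arrays of each. These mice lack cereblon, the substrate receptor of a ubiquitin ligase, and their arrays served here for the estimate of the spread, for the choice of each gene's probe set, for values set side by side and for a test of the difference between the genotypes. The labels give no wild-type group that was cultured without the antibodies, so changes due to the antibodies and changes due to culture cannot be told apart. Replicates are described there as biological, but no array is tied to an animal, so the p-values measure the spread between these arrays.

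A T cell recognises antigen through the T cell receptor, whose CD3 chains pass the signal to kinases and adaptor proteins at the membrane. From there calcium and calcineurin activate NFAT, Ras and MAP kinases activate AP-1, and protein kinase C activates NF-kappaB, while CD28 strengthens the NF-kappaB and PI3K branches. A naive T cell is small and quiescent, and within hours of stimulation it enlarges, secretes interleukin-2 and other cytokines and prepares for its first division.

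Expression was measured on 1-colour Affymetrix arrays, and the values are log2 levels, on which a difference of 1 is a 2-fold change; a signed value that follows a gene name is its log2 change, activated minus naive. Levels near the bottom of the scale cannot be told from background, and a level below 4.57, the lower quartile of the array where that quartile was lowest, is pointed out as such. Across probe sets, whose values are not independent of each other, Pearson correlations between arrays were between 0.9943 and 0.9973 within a state of the wild-type cells and between 0.9647 and 0.9703 between the states. The knocked-out gene of the series, Crbn, stood at 10.06, 10.21 and 10.09 in the wild-type naive and at 9.71 and 9.47 in the wild-type activated arrays (log2 change -0.53, SE 0.095, limma adjusted p = 0.00049). It was lower in both activated arrays than in every naive array. Among the naive arrays, replicate 1 had the highest median levels of erythroid, mitotic and interferon-stimulated genes, and results on these genes are also given without it.

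At 12 hours the wild-type cells had raised genes for secreted cytokines and chemokines, a small set of transcription factors, and the machinery that makes ribosomes, charges tRNA, folds proteins and degrades them. Genes of the antigen receptor complex, of quiescence, of adhesion and homing, of mitosis and of the interferon response were mostly lower. Of 18194 genes tested, 7475 (41.1%) were called at a limma adjusted p under 0.05, 3672 of them higher (20.2%) and 3803 lower (20.9%). Most of these changes were small: the median absolute change of the called genes was 0.59 log2, and 77.3% of them changed under 2-fold. At least 2-fold changes were called for 673 genes that rose (3.70%) and 1021 that fell (5.61%), and 8-fold or larger changes for 22 and 23 genes. The median change over all genes was 0.06 log2. In 10363 genes the activated and the naive arrays did not overlap, and 7425 genes were both called and without overlap. Nearly all of the 7475 called genes were thus without overlap, so a lack of overlap adds little to the call of a gene named below. The genes of 51 functional groups are described below against these shares, so that a group with about 20% of its members called in each direction is at the background.

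**Figure D1:**
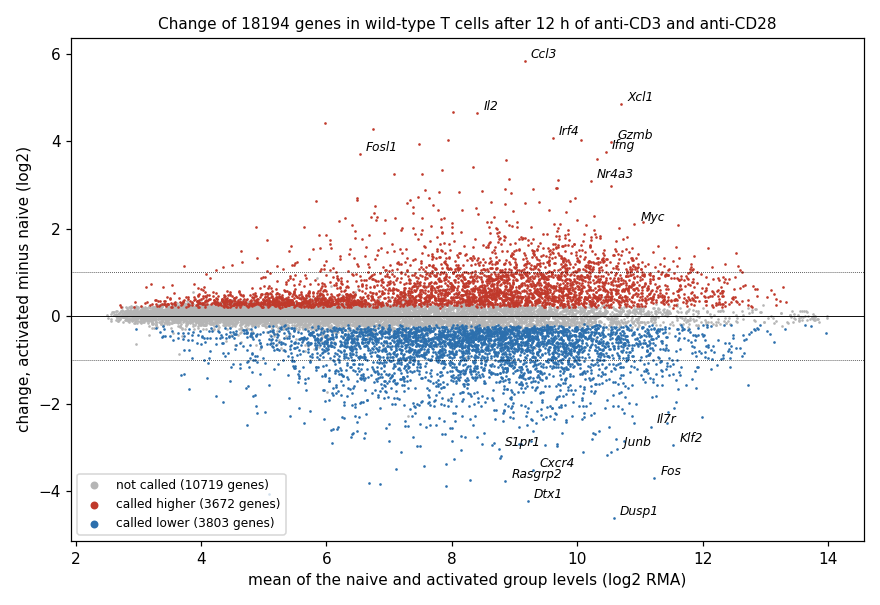
Change on activation (log2, activated minus naive) against the mean of the naive and activated group levels (log2 RMA) for 18194 genes, each point a gene: 3672 called higher, 3803 called lower and 10719 not called, with 18 genes named and dotted lines at a 2-fold change. The changes range from 5.84 for Ccl3 to -4.61 for Dusp1.

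The antigen receptor complex was lower after activation. Of 15 measured genes for the complex, its coreceptors and CD28, 11 fell and 1 rose, with a median change of -0.58. Cd3e, a signalling chain of CD3, stood at 11.82, 11.85 and 11.97 in the naive and 11.31 and 11.34 in the activated arrays (log2 change -0.55, SE 0.072, limma adjusted p = 3.3e-05). Cd247, the zeta chain, went from 11.18, 11.22 and 11.37 to 10.31 and 10.42 (-0.89, SE 0.081, limma adjusted p = 1.5e-06). Both genes were lower in each activated array than in any naive array. The coreceptor gene Cd4 stood at 8.91, 9.02 and 9.07 and then at 7.76 and 8.10 (-1.07), and Cd8b1 at 11.87, 11.98 and 12.08 and then at 10.68 and 10.78 (-1.24). The largest fall of the group was that of Thy1, a surface glycoprotein of T cells, with 12.33, 12.43 and 12.54 in naive and 10.48 and 11.07 in activated cells (-1.66, 3.15-fold). Levels of Cd28 itself overlapped between the states (11.34, 11.44 and 11.40 against 11.59 and 11.24, 0.02, limma adjusted p = 0.905), as did those of Cd6. Cd5, a receptor that restrains T cell receptor signals, was the only member that rose, from 11.11, 11.28 and 11.35 to 11.42 and 11.62 (0.27, limma adjusted p = 0.033); the call was lost without activated replicate 2 (limma adjusted p = 0.241), naive replicate 1 (0.114) or naive replicate 2 (0.056). In bulk RNA, fewer cells of a type and less RNA per cell cannot be told apart, and RMA values are relative to the other RNA of the same array.

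Among 37 genes of proximal receptor signalling, 22 fell and 6 rose (median -0.55). Regulators and adaptors close to the receptor had the largest falls. Dgka, a kinase that removes diacylglycerol and so limits Ras activation, stood at 12.44, 12.62 and 12.63 in naive and 10.80 and 10.40 in activated cells (-1.97, SE 0.14, limma adjusted p = 1.8e-07). Sh2d1a, the SLAM-associated adaptor SAP, went from 9.78, 9.92 and 9.97 to 7.86 and 8.13 (-1.89, SE 0.10, limma adjusted p = 1.4e-08). Themis, Skap1 and Pag1 followed with changes of -1.77, -1.69 and -1.58, and the kinase Prkcq with -1.05. In each of these genes the activated arrays lay below all naive arrays. Zap70, the kinase recruited to phosphorylated CD3 chains, was among the 6 that rose (10.80, 10.85 and 10.96 against 11.23 and 11.46, 0.47), with the adaptor Sh2d2a (0.75), the phosphatase Ubash3b (0.74) and the ubiquitin ligase Cblb (0.91). Another probe set of Cblb was called lower, so its direction depends on the probe set.

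Genes that switch Ras on and off moved in both directions, with 3 of 18 higher and 7 lower. Rasgrp2, an exchange factor that acts on Rap and Ras, had a fall of 13.6-fold. Its levels were 10.56, 10.76 and 10.90 in naive and 6.99 and 6.96 in activated cells (-3.77, SE 0.18, limma adjusted p = 6.9e-09). Rasgrp1, the exchange factor of the receptor pathway itself, fell less (-0.78). Spry1, a feedback inhibitor of receptor signalling to Ras, rose 8.67-fold, from 8.20, 8.08 and 8.12 to 11.15 and 11.35 (3.12, SE 0.16, limma adjusted p = 1.2e-08). Its relative Spred1 rose by 1.28, while the GTPase-activating proteins Rasa3 and Rasal3 fell (-2.05 and -1.70). Of 17 MAP kinase genes 4 rose and 5 fell, a share close to the background in each direction. The risers were Map2k3 (1.63), Mapk6 (1.23), Map3k8 (0.94) and Map4k1 (0.92), and the largest falls were those of Map2k6 (-1.37) and Map3k1 (-1.22).

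The MAP kinase phosphatases, which switch these kinases off, split into 4 that rose and 5 that fell among 12. Dusp1 had the largest fall of all genes tested. It stood at 12.82, 12.90 and 12.94 in the naive and 8.11 and 8.45 in the activated arrays, a fall of 24.4-fold (-4.61, SE 0.10, limma adjusted p = 5.5e-11), and both activated arrays lay more than 4 log2 units below every naive array. Dusp5 (-0.87), Dusp2 (-0.58), Dusp10 (-0.56) and Dusp7 (-0.25) also fell. Dusp16 (1.03), Dusp4 (0.96), Dusp22 (0.38) and Dusp14 (0.35) rose. The calls of Dusp10 (limma adjusted p = 0.054) and Dusp14 (0.191) were lost without activated replicate 2, that of Dusp14 also without naive replicate 1 (0.071), and that of Dusp7 without activated replicate 1 (0.164), naive replicate 1 (0.053) or naive replicate 3 (0.058). Dusp3 (0.22), Dusp6 (-0.17) and Dusp8 (-0.17) were not called.

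Of 24 genes of calcium entry, calcineurin and NFAT, 14 fell and 2 rose (median -0.41). Orai1, the pore of the channel through which calcium enters, rose from 9.28, 9.05 and 9.25 to 10.28 and 10.63 (1.26, SE 0.13, limma adjusted p = 4.1e-06). Its relative Orai2 fell from 9.20, 9.34 and 9.35 to 7.11 and 6.92 (-2.29, SE 0.12, limma adjusted p = 1.9e-08), so the channel subunits changed in opposite directions without overlap in either gene. The calcium sensor gene Stim1 fell (-1.27), as did the release channels Itpr2 (-1.76) and Itpr3 (-1.83). Among the catalytic subunits of calcineurin, Ppp3ca fell (-1.33) and Ppp3cc rose (0.77). Nfatc3 fell by 0.78. Nfatc1 (-0.49) and Nfatc2 (-1.36) fell by the probe set used, and each has another probe set called higher. Rcan1, a calcineurin inhibitor often used as an NFAT target gene, was not called (7.36, 7.16 and 7.28 against 7.25 and 7.50, 0.11).

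Of 24 NF-kappaB genes 8 rose and 10 fell. The subunit genes Nfkb2 (8.25, 8.30 and 8.38 against 9.30 and 9.98, 1.33), Rel (7.60, 7.61 and 7.57 against 8.71 and 9.05, 1.28) and Relb (0.86) rose, while Rela was not called (0.10). Tnfaip3, which encodes the ubiquitin-editing inhibitor A20, fell 4.54-fold, from 12.48, 12.58 and 12.57 to 10.22 and 10.50 (-2.18, SE 0.086, limma adjusted p = 2.1e-09). The inhibitor genes Nfkbiz (-1.33) and Nfkbia (-0.37) fell, and Nfkbib rose (0.96). Of the kinase subunits that release NF-kappaB, Ikbkb fell (-0.82) and so did the related Ikbke (-1.27). Without activated replicate 2 the group had 4 genes higher and 11 lower. Of 24 PI3K and mTOR genes 7 rose and 9 fell. The falls included the brake Pik3ip1 (10.02, 10.19 and 10.15 against 8.24 and 7.94, -2.03), the regulatory subunit Pik3r1 (-1.59), the catalytic subunit Pik3cg (-1.37) and the mTOR inhibitor gene Ddit4 (-1.55). The rises were smaller and included Rheb, the activator of mTOR (0.42), Akt2 (0.57) and Eif4ebp1 (0.90).

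The early growth response factors differed among themselves at this time. Egr2 stood at 8.25, 8.19 and 8.19 in naive and 11.17 and 11.10 in activated cells (2.93, 7.6-fold, SE 0.15, limma adjusted p = 1.1e-08). Egr3 rose from 8.85, 8.92 and 8.84 to 10.94 and 10.52 (1.86, SE 0.17, limma adjusted p = 1.4e-06). Egr1, the founding member, was already high in the naive arrays and was not called (11.92, 12.10 and 11.99 against 11.81 and 11.79, -0.20, limma adjusted p = 0.336), and Egr4 was not called either (0.17). The corepressors of these factors moved apart, Nab1 falling (-0.56) and Nab2 rising (0.52); the call of Nab2 was lost without activated replicate 2 (limma adjusted p = 0.081). Together 3 of the 6 measured genes rose and 1 fell. The orphan receptors of the NR4A family, which are induced by antigen receptor signals, also differed. Nr4a3 rose 8.51-fold, from 8.71, 8.74 and 8.56 to 11.81 and 11.72 (3.09, SE 0.16, limma adjusted p = 1.6e-08), and Nr4a2 rose from 8.80, 9.01 and 8.63 to 10.74 and 10.20 (1.65). Nr4a1 was not called (11.25, 11.59 and 11.53 against 11.84 and 11.61, 0.27, limma adjusted p = 0.315).

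Within the AP-1 family 6 of 17 genes rose and 8 fell, the Fos and Jun genes mostly falling and the Fos-related Fosl1 and Fosl2 rising. Fos was near the top of the scale in all naive arrays (13.07, 13.08 and 13.06) and stood at 9.46 and 9.29 in the activated arrays (-3.70, 13-fold, SE 0.16, limma adjusted p = 3.6e-09). Fosb fell from 9.55, 9.85 and 10.16 to 5.93 and 6.01 (-3.88, SE 0.14, limma adjusted p = 1.4e-09). Junb fell from 12.01, 12.18 and 12.29 to 8.83 and 9.41 (-3.04, SE 0.16, limma adjusted p = 1.8e-08), and Jun fell by 1.85. Fosl1, the gene of the Fos relative FRA-1, was close to background in naive cells (4.61, 4.63 and 4.82) and reached 8.42 and 8.35 after activation (3.70, SE 0.19, limma adjusted p = 1.2e-08). The other risers were Mafg (1.33), Fosl2 (1.00), Atf3 (0.96), Bach2 (0.71) and Batf3 (0.45), and the other falls were those of Maff (-0.65), Jdp2 (-0.60), Jund (-0.43) and Mafk (-0.28). Batf (0.34), Batf2 (0.21) and Bach1 (0.32) were not called. The call of Batf3 was lost without activated replicate 2 (limma adjusted p = 0.451), naive replicate 1 (0.059) or naive replicate 3 (0.081), and that of Mafk without activated replicate 1 (0.400), naive replicate 2 (0.085) or naive replicate 3 (0.083).

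Fos, Fosb, Jun, Junb and Dusp1 belong to a set of early genes that tissue dissociation and cell purification are known to raise. Of 33 such genes measured, 22 were lower in the activated arrays and 5 higher (median -1.03), and the group's median level was 11.25, 11.23 and 11.37 in the naive and 9.35 and 9.41 in the activated arrays. Ppp1r15a (-3.10), Rhob (-2.34) and Zfp36 (-2.10) fell with them. The heat shock gene Hspa1b stood at 8.53, 8.17 and 7.47 against 6.69 and 6.98 (-1.22). The part of the purification in the naive levels was not tested.

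Irf4 had the largest rise of all transcription factor genes in these groups. This interferon regulatory factor, whose level follows the strength of the receptor signal, went from 7.72, 7.45 and 7.55 to 11.47 and 11.82, a rise of 16.8-fold (4.07, SE 0.13, limma adjusted p = 5e-10). Its closest relative Irf8 rose from 8.70, 8.63 and 8.51 to 11.10 and 11.54 (2.71, SE 0.14, limma adjusted p = 1.6e-08). No activated array overlapped a naive array in either gene. The factors of the interferon response were lower: Irf7 (-1.46), Irf9 (-0.96) and Irf2 (-0.41). Irf5 rose slightly (0.31; limma adjusted p = 0.108 without activated replicate 1) and Irf1 was not called (-0.09). Irf3 fell by 0.24 by a call that another probe set contradicts and that was lost without activated replicate 1 (limma adjusted p = 0.185), naive replicate 2 (0.071) or naive replicate 3 (0.085).

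Myc, which drives growth and ribosome production, rose 4.3-fold, from 10.07, 9.80 and 9.69 to 11.89 and 12.03 (2.10, SE 0.11, limma adjusted p = 2.2e-08). It was the only riser among 13 genes of the MYC, MAX and MXD network, and its antagonist Mxd4 had the largest of the 5 falls (9.12, 9.11 and 9.16 against 7.53 and 6.94, -1.90). Without activated replicate 2 the network had 3 risers, and it had 3 falls without naive replicate 1, without naive replicate 3 or without activated replicate 1. Of 24 lineage factors 14 fell and 3 rose (median -0.65). The risers were Tbx21 (1.28) and Eomes (1.26), the T-box factors of interferon gamma production, and Ikzf4 (0.81). Lef1 (-1.57), Rora (-1.38), Id2 (-1.28) and Gata3 (-1.03) were among the falls, and Foxp3, the regulatory T cell factor, was not called (-0.14).

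Of 22 genes of the JAK, STAT and SOCS system 8 rose and 6 fell. Cish, an inhibitor induced by STAT5, stood at 9.05, 8.85 and 8.81 in naive and 10.94 and 11.25 in activated cells (2.19, SE 0.12, limma adjusted p = 2.6e-08). Socs1, which inhibits the JAK kinases, went from 6.82, 6.78 and 6.63 to 8.21 and 8.50 (1.61, SE 0.10, limma adjusted p = 4.7e-08). Both were higher in each activated array than in any naive array. Socs2 (0.88) and Socs5 (0.41) also rose, Socs3 fell (-0.83), and Socs4 (0.03), Socs6 (0.19) and Socs7 (0.12) were not called. Stat5a rose by 1.78 and the kinase gene Pim2 by 1.60, while Jak1 fell (-1.24).

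Genes that hold T cells in quiescence fell. Of 26 measured, 21 were lower and 1 higher, with a median change of -1.21 and a median level of 11.10, 11.16 and 11.18 in the naive and 9.22 and 9.09 in the activated arrays. Klf2, a factor that keeps naive T cells at rest and recirculating, fell 7.67-fold (-2.94, SE 0.15, limma adjusted p = 1.5e-08), without overlap between the states in the plot of levels by array. Klf4 went from 9.40, 9.53 and 9.83 to 6.42 and 6.02 (-3.37), and Tsc22d3 fell by a log2 change of -3.17 and Txnip, an inhibitor of glucose uptake, of -2.80. The antiproliferative gene Tob1 (-2.26), the forkhead factor Foxo1 (-1.87) and the cell cycle inhibitor Cdkn1b (-1.84) fell as well. Slfn2 was the only riser (0.50), and Foxp1 (0.09), Elf4 (-0.14), Kdm6b (0.31) and Peli1 (-0.25) were not called. The group's median was thus lower in both activated arrays than in all naive arrays.

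Klf6 is shown as a falling member of the quiescence group whose promoter window holds a match to the E-box that MYC and its partners bind. Its levels were 11.54, 11.66 and 11.65 in naive and 8.97 and 8.91 in activated cells (-2.68, SE 0.11, limma adjusted p = 2.2e-09). The 250 bases before its start (RefSeq, GRCm38.p6, chr13:5861239-5861488, plus strand) are given 5′ to 3′ with the matches in capitals, an NFAT-type match 233 to 228 bases and an E-box 43 to 38 bases before the start.
Klf6: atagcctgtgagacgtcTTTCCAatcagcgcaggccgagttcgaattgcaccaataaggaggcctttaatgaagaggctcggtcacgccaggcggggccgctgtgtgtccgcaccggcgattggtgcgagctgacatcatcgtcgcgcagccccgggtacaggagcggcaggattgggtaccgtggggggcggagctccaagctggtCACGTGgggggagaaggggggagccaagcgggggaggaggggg
Of the 26 quiescence genes 23 have a window in the table, and 3 of these (13.0%) hold the E-box CACGTG and 6 (26.1%) the NFAT-type letters TGGAAA or TTTCCA. Over all measured genes with a window, 14453 of 18194 (79.4%, just under the 80% required of a group), the shares were 8.7% and 18.8% and are given as background only. A match describes letters in this window and is not a binding site.

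Among 12 Notch genes 6 fell and 1 rose. Dtx1, a Notch target and regulator linked to T cell unresponsiveness, fell 18.6-fold, from 11.16, 11.36 and 11.44 to 7.01 and 7.19 (-4.22, SE 0.10, limma adjusted p = 7.3e-11). Both activated arrays lay below all naive arrays. Rbpj, the DNA-binding partner of Notch, was the riser (8.76, 8.74 and 8.53 against 10.20 and 10.27, 1.56). Hes1 fell by 0.65 and Notch1 by a log2 change of -0.36.

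Cytokine genes rose. Of 33 interleukin, interferon and TNF family genes measured 19 were called higher and 3 lower, with 16 of the rises at least 2-fold and a median change of 0.97. Il2, the growth factor that activated T cells make for themselves, stood at 6.21, 5.91 and 6.12 in the naive and 10.37 and 11.09 in the activated arrays (4.65, 25.1-fold, SE 0.22, limma adjusted p = 7.6e-09). Ifng, the gene of interferon gamma, rose from 8.77, 8.36 and 8.63 to 12.15 and 12.51 (3.75, SE 0.19, limma adjusted p = 1.2e-08). Lif went from 5.95, 5.99 and 6.02 to 8.0 and 9.16 (2.59), highest in activated replicate 2. Il4, a cytokine of helper cells of type 2, rose from 6.12, 6.23 and 6.03 to 8.61 and 8.64 (2.50), and Csf2, the gene of GM-CSF, rose from 5.90, 5.80 and 5.79 to 7.63 and 8.42 (2.20). In each of these 5 genes activated replicate 2 was above activated replicate 1, and neither overlapped the naive arrays. The TNF family followed, with Lta (2.15), Tnfsf14 (2.13), Tnf (2.05), Tnfsf8 (1.85), Tnfsf11 (1.64), Cd70 (1.50) and Fasl (1.28). Il13 (1.04) and Il17a (1.05) rose, and so did Il3 (1.50), whose naive levels all lay below 4.57, so the size of its change is uncertain. Il16 (-1.40), Ltb (-0.68) and Tgfb3 (-0.33) fell; the call of Tgfb3 was lost without activated replicate 1 (limma adjusted p = 0.227), naive replicate 2 (0.056) or naive replicate 3 (0.065). Il10 (6.52, 6.47 and 6.60 against 6.55 and 6.67), Il21 (5.40, 5.45 and 5.68 against 5.11 and 5.93) and Cd40lg (6.21, 6.15 and 6.22 against 6.14 and 6.19) overlapped between the states and were not called.

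The Il2 promoter is the textbook example of a gene that needs NFAT, AP-1 and NF-kappaB together, and its window is shown because Il2 had the largest rise among the cytokines. These 250 bases before the start lie at chr3:37125955-37126204 on the minus strand (RefSeq, GRCm38.p6). The match in capitals is the NFAT-type sequence TTTCCA, 47 to 42 bases before the start.
Il2: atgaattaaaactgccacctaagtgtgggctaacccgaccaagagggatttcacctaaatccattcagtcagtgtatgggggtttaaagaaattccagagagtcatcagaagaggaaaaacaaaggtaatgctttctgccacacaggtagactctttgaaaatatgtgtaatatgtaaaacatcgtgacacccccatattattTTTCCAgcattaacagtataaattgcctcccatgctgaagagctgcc
Matches were searched on both strands for the NFAT-type core (TGGAAA or TTTCCA), AP-1 (TGACTCA or TGAGTCA), NF-kappaB (GGGACTTTC, GGGAATTTC or GGAAATTCC and their complements), CRE (TGACGTCA) and the E-box (CACGTG). An NFAT-type match can share letters with an NF-kappaB match. Among all 14453 genes with a window 18.8% held an NFAT-type match, 4.7% an AP-1 match, 0.9% an NF-kappaB match, 2.5% a CRE and 8.7% an E-box. Of the 673 genes called higher at least 2-fold 563 have a window, and 22.7% of these held an NFAT-type match, 4.6% an AP-1 match, 1.8% an NF-kappaB match, 2.5% a CRE and 12.3% an E-box. Windows were found for only 25 of the 33 cytokine genes, 11 of the 16 chemokine genes and 78.9% of the genes called lower at least 2-fold, under the 80% required, so no shares are given for these.

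Chemokine genes had the steepest rises of all. Of 16 ligands 10 were called higher and 2 lower, with a median change of 0.89 and group medians of 6.16, 5.90 and 5.89 in the naive and 8.10 and 8.34 in the activated arrays. Ccl3, a chemokine that draws in monocytes and T cells, rose 57.4-fold, from 6.80, 6.06 and 5.86 to 12.11 and 12.06 (5.84, SE 0.27, limma adjusted p = 6.3e-09). Its neighbour in function Ccl4 rose from 8.07, 8.04 and 8.05 to 12.17 and 12.00 (4.03). Xcl1, lymphotactin, which attracts cross-presenting dendritic cells, rose from 8.48, 8.27 and 8.08 to 13.20 and 13.04 (4.84, SE 0.11, limma adjusted p = 6.1e-11). Ccl1, the ligand of CCR8, went from 5.58, 5.53 and 5.93 to 10.35 and 10.35 (4.67, SE 0.16, limma adjusted p = 8.3e-10). In all 4 genes the lowest activated array was more than 3 log2 units above the highest naive array. Ccl9 rose from 5.40, 5.57 and 5.40 to 8.58 and 8.83 (3.25) and Ccl22 from 6.34, 6.27 and 6.24 to 8.64 and 9.32 (2.70). The interferon gamma induced ligands of CXCR3 rose less, Cxcl9 from 6.21, 5.55 and 5.26 to 7.89 and 8.0 (2.27), Cxcl10 from 7.73, 7.22 and 7.16 to 8.30 and 8.68 (1.12, SE 0.19, limma adjusted p = 0.0003) and Cxcl11 by 0.48. Naive replicate 1 was the highest of the naive arrays for Ccl3, Cxcl9 and Cxcl10. Ccl5, a ligand stored by memory cells, was the exception among the T cell chemokines: it stood at 12.01, 12.02 and 12.47 and fell to 9.25 and 9.39 (-2.85, 7.21-fold, SE 0.16, limma adjusted p = 3.2e-08). Cxcl2 also fell (-1.19), to levels below 4.57, Ccl17 rose by 0.65, and Ccl2 (0.29), Ccl6 (-0.14), Ccl20 (0.20) and Cxcl16 (0.13) were not called.

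Ccl17 and Ccl22 are also markers of activated dendritic cells. Of 11 dendritic cell genes measured 3 rose and 3 fell; the other riser was Fscn1 (7.14, 7.00 and 6.71 against 9.08 and 9.66, 2.42), while Itgax, a defining marker, fell (-0.87) and Siglech (0.01), Clec10a (-0.01) and Cd209a (0.14) were not called. Of the 3 falls 1 was left without naive replicate 2 and 1, beside 4 rises, without activated replicate 2. The summed level of the list, the log2 values taken back to the linear scale and added over genes, was 1635, 1346 and 1375 in the naive and 2114 and 2896 in the activated arrays. This sum includes Ccl17, Ccl22 and Fscn1 themselves, so it is no separate measure of dendritic cells. The part of these cells in the chemokine values was not tested.

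The windows of Ccl1 and Cxcl10 are shown to set a chemokine gene with a steep rise beside one with a small rise; both are on the minus strand (RefSeq, GRCm38.p6), at chr11:82179813-82180062 and chr5:92348890-92349139. That of Ccl1 holds an NFAT-type match 116 to 111 bases before the start. That of Cxcl10 holds an NFAT-type match 215 to 210, an NF-kappaB match 158 to 150 and an AP-1 match 74 to 68 bases before the start.
Ccl1: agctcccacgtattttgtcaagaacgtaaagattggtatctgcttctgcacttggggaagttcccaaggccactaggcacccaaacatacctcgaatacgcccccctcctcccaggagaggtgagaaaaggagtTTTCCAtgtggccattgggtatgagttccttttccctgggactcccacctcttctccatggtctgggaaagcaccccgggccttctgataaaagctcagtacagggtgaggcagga
Cxcl10: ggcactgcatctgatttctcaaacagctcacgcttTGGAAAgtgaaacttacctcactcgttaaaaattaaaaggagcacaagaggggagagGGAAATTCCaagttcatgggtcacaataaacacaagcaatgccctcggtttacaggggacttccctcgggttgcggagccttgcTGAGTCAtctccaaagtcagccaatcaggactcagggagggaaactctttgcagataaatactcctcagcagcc
The gene with more matches was thus the gene with the smaller change, 2.17-fold against 25.5-fold. These are 2 chosen genes, and the count of matches is a description of their letters.

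**Figure D2:**
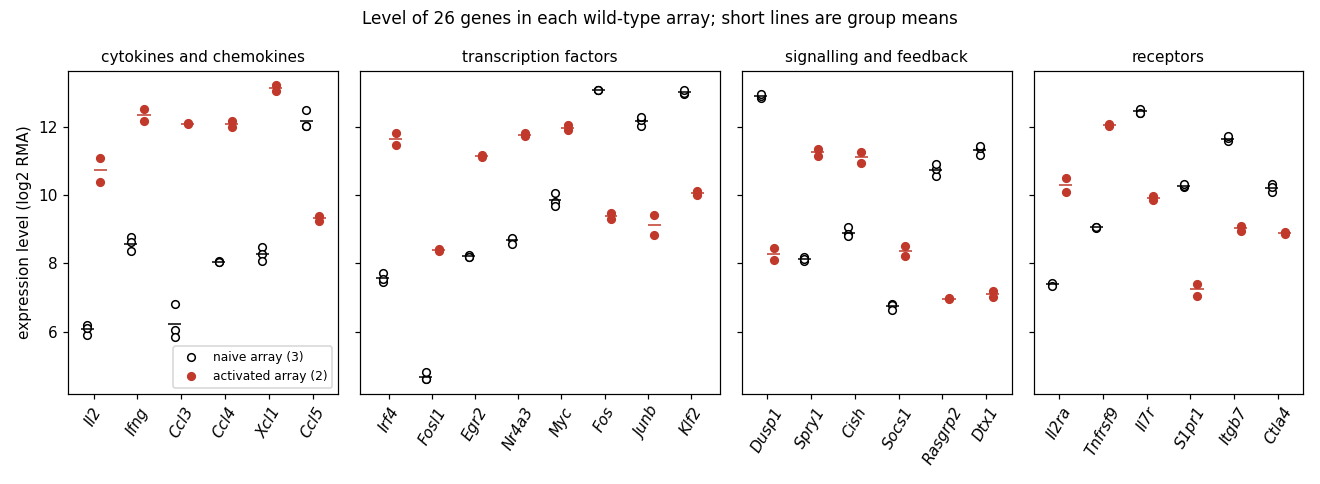
Log2 RMA level of 26 named genes in each of the 3 naive and 2 activated wild-type arrays, in panels for secreted products, transcription factors, signalling regulators and surface receptors; each symbol is 1 array. In none of the 26 genes, which were chosen for display, do the naive and activated arrays overlap. Of all 18194 genes tested, 10363 did not overlap between the states. Examples are Ccl3 (6.80, 6.06 and 5.86 against 12.11 and 12.06) and Ctla4 (10.09, 10.31 and 10.22 against 8.91 and 8.86).

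Receptors for cytokines fell more often than they rose, 16 against 8 of 26. Il2ra, the chain that gives the interleukin-2 receptor its high affinity, rose 7.45-fold, from 7.41, 7.44 and 7.35 to 10.10 and 10.50 (2.90, SE 0.11, limma adjusted p = 1.9e-09). Il2rb, the signalling chain, fell from 9.89, 9.80 and 9.89 to 9.24 and 9.53 (-0.48, SE 0.10, limma adjusted p = 0.0023). The chains of the receptor thus moved apart while the ligand gene rose. Il7r, the survival receptor of resting T cells, fell from 12.39, 12.51 and 12.40 to 9.96 and 9.86 (-2.52, 5.76-fold, SE 0.14, limma adjusted p = 2e-08), and Il6ra fell by 2.62. Il15ra (1.53), Il12rb1 (1.32) and Il12rb2 (0.92) rose, the latter pair being the chains of the interleukin-12 receptor. The receptors for interferons were lower, with Ifnar1 (-0.86), Ifnar2 (-0.70) and Ifngr1 (-0.82), and so was Tgfbr2 (-1.32).

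Genes for movement between blood and lymphoid tissue were lower, with 12 of 23 homing and egress receptors falling and 4 rising. S1pr1, the receptor that lets T cells leave lymph nodes, went from 10.24, 10.26 and 10.32 to 7.41 and 7.06 (-3.04, SE 0.15, limma adjusted p = 1.3e-08). Cxcr4, the receptor for CXCL12, went from 10.98, 11.02 and 11.16 to 7.59 and 7.50 (-3.51, SE 0.11, limma adjusted p = 5e-10). Both are further examples of falls without overlap. Cxcr3 (-1.46) and Selplg, the selectin ligand (-1.25), fell too. Ccr8 (0.81), the receptor for the induced Ccl1, and Ccr4 (0.74), the receptor for Ccl22, rose, and Ccr7 was not called (11.44, 11.56 and 11.63 against 11.67 and 11.80, 0.19). Without activated replicate 2, 2 of these genes were called higher and 9 lower. Of 18 adhesion genes 10 fell and 3 rose. Itgb7, the beta chain of the gut-homing integrins, stood at 11.58, 11.66 and 11.71 against 9.10 and 8.95 (-2.62, SE 0.11, limma adjusted p = 2.4e-09), and its partners Itga4 (-2.36) and Itgae (-2.30) fell with it. Itgav (0.96) and Cd44 (0.69) rose. Cd69, an early activation marker, was not higher in activated cells. It stood at 11.45, 11.42 and 11.54 against 11.19 and 10.98 (-0.39, limma adjusted p = 0.035), and its call as lower was lost without activated replicate 2 (limma adjusted p = 0.231), naive replicate 1 (0.059), naive replicate 2 (0.055) or naive replicate 3 (0.086).

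Costimulatory genes changed in both directions, and the largest changes were rises. Tnfrsf9, the gene of 4-1BB, went from 9.06, 9.04 and 9.07 to 12.06 and 12.01 (2.98, SE 0.12, limma adjusted p = 1.9e-09), Tnfrsf4, the gene of OX40, rose by 1.74 and Tnfrsf18, the gene of GITR, by 0.81. Icos rose by 1.00 and Slamf1 by 2.38. Of the TNF receptor family Tnfrsf25 (-0.96) and Tnfrsf1a (-0.53) fell. Cd48 (-1.32) and Slamf6 (-0.97) fell too, so that 7 of 22 genes were higher and 8 lower.

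Inhibitory receptors and ligands rose more often than they fell, 8 against 4 of 16. Pdcd1, the gene of PD-1, stood at 6.51, 6.16 and 6.63 in naive and 8.91 and 9.04 in activated cells (2.54, 5.81-fold, SE 0.25, limma adjusted p = 2.6e-06). Its ligands rose too, Pdcd1lg2 from 6.69, 6.73 and 6.67 to 9.48 and 9.58 (2.83, SE 0.11, limma adjusted p = 2.2e-09) and Cd274 by 1.64. Receptor and ligand genes were thus all higher in each activated array than in any naive array. Lag3 (1.87), Cd200 (1.83), Havcr2 (0.79), Cd160 (0.57) and Btla (0.44) made up the other rises; the call of Btla was lost without activated replicate 2 (limma adjusted p = 0.126). Ctla4, the inhibitory receptor that competes with CD28, went the other way, from 10.09, 10.31 and 10.22 to 8.91 and 8.86 (-1.33, SE 0.13, limma adjusted p = 2e-06). Lair1 (-1.47), Cd244a (-0.96) and Cd200r1 (-0.69) also fell, Cd244a to levels below 4.57. Vsir (-0.24), Nt5e (0.03), Entpd1 (-0.21) and Ceacam1 (0.01) were not called.

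Cytolytic granule genes changed in both directions. Gzmb, the granzyme of newly activated killer cells, rose 15.9-fold, from 8.89, 8.29 and 8.48 to 12.37 and 12.71 (3.99, SE 0.32, limma adjusted p = 5.9e-07). The granzyme B inhibitor gene Serpinb9 (2.81) and the related Serpinb6b (1.88) rose with it, Gzmc rose by 1.24 from naive levels below 4.57, and Prf1 (0.40) and Srgn (0.26) rose slightly. The call of Prf1 was lost without activated replicate 2 (limma adjusted p = 0.060) and that of Srgn without activated replicate 1 (0.051). Gzmm (-1.56), Gzmk (-1.46), Unc13d (-1.12), Ctsw (-1.06) and Rab27a (-0.71) fell, and the call of Gzmk was lost without activated replicate 1 (limma adjusted p = 0.106). Gzma, an abundant granzyme of memory and natural killer cells, varied among the naive arrays and was not called (9.83, 9.02 and 10.23 against 8.75 and 9.18, -0.73, limma adjusted p = 0.345). Gzmd, Gzme, Gzmf and Gzmg lay below 4.57 in all 5 arrays, and Nkg7 (-0.17) and Lamp1 (-0.02) were not called. In all 6 of 18 granule genes rose and 5 fell. Of 10 natural killer cell markers 5 fell, 2 rose and 3 were not called. The risers were Eomes (1.26) and Prf1 (0.40), which is itself among the granule genes. Klrd1 (-1.79) and Klre1 (-1.05) were among the falls, Klra1, a defining receptor, was below 4.57 in all 5 arrays, and the list's summed level was 4999, 4899 and 5475 in the naive and 3275 and 3350 in the activated arrays. Klrd1 had the highest naive levels of this list and weighed most in the naive sums, so the sum does not describe the list as a whole. The part of natural killer cells in the granule values was not tested.

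Genes for making ribosomes rose without exception among those measured. All 61 ribosome biogenesis factors were called higher, 42 of them at least 2-fold, with a median change of 1.20 against 0.06 over all genes. The group's median level was 9.49, 9.31 and 9.26 in the naive and 10.36 and 10.72 in the activated arrays. Pno1, a factor of small subunit assembly, had the largest rise, from 9.49, 9.22 and 9.12 to 11.20 and 11.31 (1.98, SE 0.10, limma adjusted p = 1.7e-08). Nolc1 (1.89), Nop16 (1.89), Rrp1b (1.82), Tbl3 (1.80) and Ebna1bp2 (1.78) followed. Polr1b, a subunit of the polymerase that transcribes ribosomal RNA, rose by 1.52, and Fbl, the methyltransferase fibrillarin, by 1.13. The smallest changes were those of Npm1 (12.93, 13.01 and 12.94 against 13.50 and 13.23, 0.40) and Ubtf (0.32, limma adjusted p = 0.0034).

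Nop2, a methyltransferase of ribosomal RNA, is shown as a riser with an E-box in its window. Its levels were 9.48, 9.21 and 9.27 in naive and 10.62 and 11.07 in activated cells (1.52, SE 0.12, limma adjusted p = 4e-07). The 250 bases before its start lie at chr6:125131633-125131882 on the plus strand (RefSeq, GRCm38.p6), with the E-box in capitals 60 to 55 bases before the start.
Nop2: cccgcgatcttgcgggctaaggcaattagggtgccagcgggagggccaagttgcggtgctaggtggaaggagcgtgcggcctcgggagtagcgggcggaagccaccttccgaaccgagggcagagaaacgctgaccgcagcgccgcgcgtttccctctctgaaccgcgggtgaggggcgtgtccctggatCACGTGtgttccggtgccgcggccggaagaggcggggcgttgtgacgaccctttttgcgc
Of the 53 ribosome biogenesis genes with a window 4 (7.5%) held this E-box, beside 8.7% of all genes with a window, and 14 (26.4%) held an NFAT-type match, beside 18.8%.

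The cytosolic ribosomal proteins themselves hardly moved. Of 43 genes 2 rose and 1 fell, a share below the background in both directions, the median change was -0.02, and the group's median level was 13.57, 13.56 and 13.56 in naive and 13.56 and 13.55 in activated cells. Many of these genes lay near the top of the measured range. The called members were lower on the scale. Rps25 stood at 10.23, 10.36 and 10.23 against 11.25 and 11.35 (1.03), Rps27 at 8.85, 8.91 and 8.95 against 8.01 and 8.32 (-0.74) and Rpl14 at 8.78, 8.52 and 8.45 against 8.91 and 9.21 (0.48). The call of Rpl14 was lost without activated replicate 2 (limma adjusted p = 0.061), when 1 gene of the group was called higher and 2 lower.

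**Figure D3:**
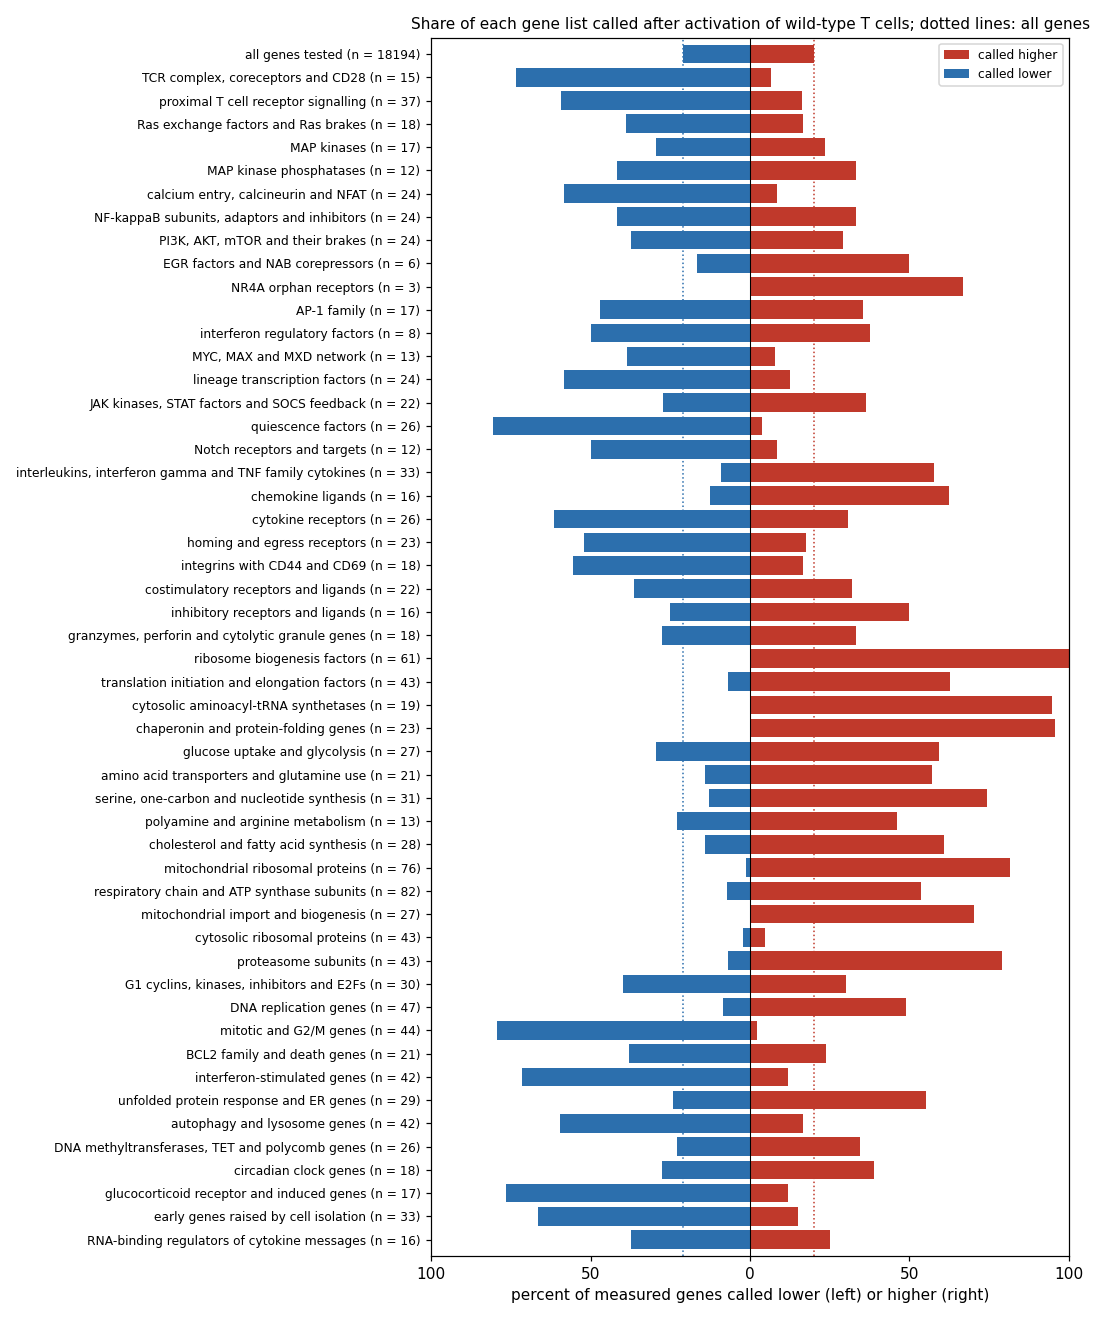
Percent of the measured genes of 51 functional groups called higher (bars to the right) or lower (bars to the left), with the number measured beside each name; dotted lines mark all genes tested (20.2% higher, 20.9% lower). The bar of ribosome biogenesis factors reaches 100% on the right, and that of cytosolic ribosomal proteins lies inside both dotted lines.

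The steps around the ribosome rose with its assembly. Of 19 aminoacyl-tRNA synthetases, which load tRNA with amino acids, 18 rose (median 1.08). Iars had the largest change, from 9.90, 9.64 and 9.50 to 11.13 and 11.12 (1.45, SE 0.10, limma adjusted p = 1.8e-07), and Qars was not called (0.07). Of 43 initiation and elongation factors 27 rose and 3 fell (median 0.51). Eif4e, the protein that binds the cap of messenger RNA, went from 9.49, 9.12 and 9.11 to 10.46 and 10.96 (1.47, SE 0.17, limma adjusted p = 1.6e-05). Its relative Eif4e3 fell (-0.63), and so did Eif4a2 (-0.50), while Eif4a1 rose (0.62), so paralogous factors changed in opposite directions. Eif2b3 (1.77) and Eif1a (1.59) were the largest rises. Of 23 chaperonin and folding genes 22 rose (median 0.88), led by Hspd1, the mitochondrial chaperonin (11.59, 11.21 and 11.14 against 12.80 and 12.92, 1.55), and including all measured subunits of the cytosolic chaperonin from Cct8 (1.06) to Cct4 (0.60).

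Proteasome genes rose in 34 of 43 cases and fell in 3 (median 0.80). Psme3, an activator subunit, rose from 8.15, 7.85 and 7.87 to 9.56 and 9.85 (1.75, SE 0.12, limma adjusted p = 1.2e-07), and the regulatory particle subunits Psmd7 (1.46), Psmd1 (1.33) and Psmd12 (1.23) followed. The 3 falls were the catalytic subunits of the immunoproteasome, which interferon induces. Psmb10 went from 11.52, 11.15 and 11.20 to 10.19 and 10.44 (-0.98, limma adjusted p = 5.7e-05), Psmb9 from 11.47, 11.17 and 11.24 to 10.82 and 11.02 (-0.38) and Psmb8 from 12.02, 11.83 and 11.93 to 11.57 and 11.72 (-0.28). Their constitutive counterparts Psmb5 (0.92), Psmb6 (0.89) and Psmb7 (1.04) rose. The fall of Psmb8 was no longer called without activated replicate 1 (limma adjusted p = 0.244), activated replicate 2 (0.051), naive replicate 1 (0.124) or naive replicate 3 (0.075). That of Psmb9 was no longer called without activated replicate 1 (0.175) or naive replicate 1 (0.073), when 1 proteasome gene was left as lower and 35 as higher.

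Of 76 mitochondrial ribosomal proteins 62 rose and 1 fell (median 0.70), with Mrps6 at the top (9.27, 9.09 and 9.15 against 10.93 and 11.14, 1.87) and Mrpl58 the only fall (-0.31), a call lost without activated replicate 1 (limma adjusted p = 0.097) or naive replicate 3 (0.055). Of 27 import and biogenesis genes 19 rose (median 0.83), led by Timm10 (1.83), Tomm40 (1.62) and Timm50 (1.54). Of 82 subunits of the respiratory chain and ATP synthase 44 rose and 6 fell (median 0.25). Ndufa12 of complex I rose from 11.13, 10.99 and 10.91 to 12.10 and 12.22 (1.15), and Uqcrq of complex III by 1.07. Cox7c, a subunit of complex IV, fell from 9.57, 9.75 and 9.54 to 7.59 and 7.81 (-1.92), the largest fall of the group. Without activated replicate 1, 3 of these subunits were called lower in place of 6. The transcription coactivator Ppargc1a was below 4.57 in all 5 arrays.

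Of 27 genes of glucose uptake and glycolysis 16 rose and 8 fell. Hk2, the inducible hexokinase, rose from 7.37, 6.80 and 6.94 to 9.65 and 10.16 (2.87, SE 0.21, limma adjusted p = 2.4e-07), while the constitutive Hk1 fell (-0.72). Slc2a1, the transporter of activated T cells, rose by 0.35 and Slc2a3 fell (-1.06). Pgam1 (1.51), Tpi1 (1.17) and the lactate transporter Slc16a1 (1.14) rose. Pdk1, the gene of a kinase that inhibits pyruvate dehydrogenase, fell from 10.74, 10.84 and 10.78 to 9.50 and 9.58 (-1.24). Isoforms of hexokinase and of the glucose transporter thus moved in opposite directions.

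Amino acid use was led by Bcat1, the branched-chain aminotransferase, which rose from 6.10, 5.72 and 5.98 to 9.78 and 10.13 (4.02, 16.2-fold, SE 0.14, limma adjusted p = 8.5e-10). The large neutral transporter Slc7a5 (1.61), the cationic transporter Slc7a1 (1.31) and the transaminase Got1 (1.43) rose, and 12 of 21 genes were higher and 3 lower. Asns, which makes asparagine, varied from 8.98, 7.92 and 6.73 among the naive arrays and was not called (8.51 and 8.84 in activated cells). Slc38a5 stood at 8.20, 6.80 and 5.43 and 4.69 and 4.61 (-2.16), and its call as lower was lost without activated replicate 2 (limma adjusted p = 0.057). In both of these genes naive replicate 1 was the highest and naive replicate 3 the lowest of the naive arrays, the order also seen in erythroid genes described below; the part of erythroid cells was not tested.

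Serine, one-carbon and nucleotide genes rose in 23 of 31 cases and fell in 4 (median 0.87). Shmt1, the cytosolic serine hydroxymethyltransferase, went from 7.48, 7.29 and 7.26 to 10.27 and 10.67 (3.13, SE 0.12, limma adjusted p = 1.8e-09), and its mitochondrial counterpart Shmt2 rose by 1.76. The purine genes Pfas (1.67) and Gart (1.30) and the pyrimidine genes Ctps (1.55), Cad (1.52) and Umps (1.44) rose. Rrm2 (11.09, 10.47 and 9.95 against 8.76 and 9.12, -1.57) and Tk1 (8.38, 7.85 and 7.54 against 6.32 and 6.98, -1.27), which serve DNA synthesis in S phase, fell. Srm, spermidine synthase, rose by 2.16 within a polyamine group of 13 genes with 6 higher and 3 lower, and Odc1 by 0.91.

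Lipid synthesis rose along the cholesterol pathway. Of 28 genes 17 rose and 4 fell (median 0.50). Idi1 went from 8.38, 8.08 and 8.11 to 10.99 and 11.25 (2.93, SE 0.12, limma adjusted p = 2.2e-09), Cyp51 rose by 2.48, Sqle by 2.00 and Hmgcs1 by 1.41. The fatty acid genes Acaca (1.78) and Fasn (1.17) rose too. The cholesterol exporters Abca1 (8.45, 8.64 and 8.56 against 5.86 and 6.23, -2.51) and Abcg1 (-2.10) fell, so synthesis and export genes moved in opposite directions.

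Of 30 genes of G1 control 9 rose and 12 fell. Cdk4 (9.99, 9.81 and 9.67 against 10.80 and 11.08, 1.12), Cdk6 (1.02) and Ccnd2 (0.68), the kinases and cyclin of early G1, rose, and so did the inhibitor Cdkn1a (1.17). Ccnd3 (-1.19), the inhibitor Cdkn2d (-2.25) and E2f2 (9.45, 9.23 and 9.04 against 6.65 and 7.04, -2.39) fell. Of 47 replication genes 23 rose and 4 fell (median 0.29), among them the helicase subunits Mcm5 (0.85), Mcm3 (0.82) and Mcm2 (0.78) and the polymerase subunit Pold2 (1.09). This count rested on the arrays used: it was 10 higher and 5 lower without activated replicate 2, 16 and 7 without naive replicate 3, 25 and 2 without naive replicate 1, and 24 and 2 without activated replicate 1.

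Mitotic genes fell. Of 44 genes of G2 and mitosis 35 were lower and 1 higher (median -0.98), and the group's median level was 8.38, 7.77 and 7.52 in the naive and 6.65 and 6.88 in the activated arrays. Mki67, the proliferation antigen, stood at 10.73, 10.36 and 9.87 against 7.89 and 8.16 (-2.29, SE 0.27, limma adjusted p = 1.3e-05). Kif23, a motor of cell division, stood at 8.95, 8.90 and 8.82 against 6.65 and 7.09 (-2.02, SE 0.12, limma adjusted p = 5e-08), and Ccnb2 (-2.12), Nusap1 (-2.04) and Cdca3 (-1.80) also fell. The lowest naive array still lay above both activated arrays in Mki67 and Kif23. Leaving out an array changed the count: 23 were lower without activated replicate 1, 28 without activated replicate 2 and 31, with 2 higher, without naive replicate 1. Bub3 was the only riser (0.24), a call lost without activated replicate 2 (limma adjusted p = 0.121) or naive replicate 2 (0.074).

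Erythroid genes followed the same order over the naive arrays. Of 11 measured, 6 were lower after activation and 1 higher (median -1.89), and their median level was 9.89, 8.60 and 7.36 in naive replicates 1, 2 and 3 and 6.49 and 6.47 in the activated arrays. Klf1, the erythroid master regulator, stood at 10.17, 8.60 and 7.65 against 6.49 and 6.47 (-2.33), and Car1, a red cell carbonic anhydrase, at 11.13, 10.28 and 9.73 against 6.84 and 7.55 (-3.19). The call of Klf1 was lost without activated replicate 2 (limma adjusted p = 0.052), when 2 erythroid genes were called lower and 0 higher, and 4 were lower and 1 higher without naive replicate 1 (median -1.32). Hba-a1, a defining globin gene, was below 4.57 in all 5 arrays by the probe set used. The riser was Tfrc (10.56, 9.96 and 9.65 against 10.76 and 10.91, 0.78), the transferrin receptor that dividing T cells also use; its call was lost without activated replicate 2 (limma adjusted p = 0.074). Mitotic and erythroid levels were both highest in naive replicate 1, and the part of erythroid precursors in the mitotic fall was not tested.

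Of 21 genes of the BCL2 family and cell death 5 rose and 8 fell. Bcl2l1, which encodes the survival protein BCL-XL, rose from 8.90, 8.89 and 8.71 to 10.37 and 10.82 (1.76), and the pro-apoptotic Bcl2l11, the gene of BIM, from 9.90, 9.86 and 9.70 to 11.30 and 10.96 (1.31). The p53 targets Pmaip1 (-1.49) and Bbc3 (-1.08) fell, Mcl1 fell by 0.55, and Bcl2 was not called (-0.12). The 5 rises became 2 without activated replicate 2 and 3 without naive replicate 1.

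Interferon-stimulated genes fell in 30 of 42 cases and rose in 5 (median -0.69), with group medians of 9.85, 9.24 and 9.36 in the naive and 8.62 and 8.71 in the activated arrays. Cmpk2 went from 9.63, 8.50 and 8.10 to 5.74 and 5.54 (-3.11, SE 0.32, limma adjusted p = 4.8e-06), naive replicate 1 being the highest. Sp100 (-2.09), Mx1 (-2.09), Dhx58 (-1.65) and Ifit1 (-1.40) fell too. The 5 risers were Gbp2 (11.00, 10.35 and 10.35 against 12.62 and 12.67, 2.08), Iigp1 (9.70, 8.16 and 8.17 against 10.67 and 10.71, 2.01), Irgm1 (0.82), Igtp (0.78) and Gbp3 (0.74), all members of the GTPase families that interferon gamma induces. Without naive replicate 1, 23 of these interferon-stimulated genes were called lower and 6 higher (median -0.49).

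Protein folding in the endoplasmic reticulum rose in part, with 16 of 29 genes higher and 7 lower. The chaperone genes Sdf2l1 (1.45), Pdia6 (1.10) and Hyou1 (0.79) rose, and Dnajb9 (11.39, 11.41 and 11.32 against 9.16 and 9.16, -2.21) and the stress sensor Eif2ak3 (-1.07) fell. Hspa5, the central chaperone of the compartment, was not called (0.16). Autophagy and lysosome genes fell in 25 of 42 cases and rose in 7 (median -0.43). The lysosomal genes Psap (-1.35), Ctsd (-1.28) and Ctsa (-1.17) and the autophagy kinase Ulk2 (-1.24) fell, and Gabarapl1 rose (7.47, 7.11 and 6.98 against 8.16 and 8.38, 1.09). The 7 rises became 3 without activated replicate 2 and 4 without naive replicate 3.

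Macrophage and monocyte markers fell alongside the lysosomal genes: 11 of 17 were lower and 0 higher (median -0.81), against 20.9% lower over all genes. Tyrobp (7.65, 8.0 and 7.91 against 6.08 and 6.57, -1.52), Mpeg1 (-1.46), C1qa (-1.15) and Ctss (-1.07) fell. The summed level of the list was 6037, 6053 and 6027 in the naive and 3081 and 2976 in the activated arrays. Ctss had the highest level of the list in every wild-type array (11.99, 11.94 and 11.95 against 10.91 and 10.87). It weighed most in this sum, so the sum does not describe the list as a whole. Of the defining markers Itgam was below 4.57 in all 5 arrays and Cd14 close to it (4.76, 4.88 and 4.83 against 4.87 and 4.70). The part of these cells in the lysosomal and interferon values was not tested.

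Of 26 DNA methylation and polycomb genes 9 rose and 6 fell. Bmi1 (0.91), Ezh2 (0.61), Dnmt3a (0.75) and Dnmt3b (0.57) rose, and Tet1 (-1.10), Cbx7 (-0.94) and Ezh1 (-0.63) fell, so that the paralogues Ezh2 and Ezh1 moved apart. Clock genes had 7 of 18 higher and 5 lower. Npas2, a partner of BMAL1, rose from 4.73, 4.68 and 4.45 to 6.40 and 6.90 (2.03), Nfil3 rose by 0.99 and Per2 by 0.82, and Per1 (-1.03) and Arntl (-0.66) fell. Without activated replicate 2 or without naive replicate 1, 4 clock genes were called higher in place of 7.

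Of 17 genes of the glucocorticoid receptor and its targets 13 fell and 2 rose (median -1.20). They included Sgk1 (11.03, 11.20 and 11.15 against 8.21 and 8.20, -2.92), Tsc22d1 (-2.40) and the receptor Nr3c1 (-0.79), beside Dusp1, Cxcr4, Tsc22d3 and Il7r, which are named above with other groups. Fkbp5, a classical target, was not called (9.84, 9.71 and 9.73 against 9.63 and 9.82, -0.03), and Errfi1 rose (0.82). The other riser, Zbtb16 (0.21), has another probe set called lower, and its call was lost without activated replicate 1 (limma adjusted p = 0.097), activated replicate 2 (0.079), naive replicate 1 (0.108) or naive replicate 2 (0.081). Of 16 RNA-binding regulators of cytokine messages 4 rose and 6 fell (median -0.05). Zfp36l2 (-2.31) and Zfp36 (-2.10), whose proteins destabilise such messages, fell. Zc3h12d rose (0.71) and Zc3h12a, the gene of regnase-1, fell (-0.64).

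Several of the largest changes lay outside these groups. Mir155hg, the transcript from which microRNA-155 is made, rose from 4.79, 4.49 and 4.51 to 8.69 and 9.04 (4.27, SE 0.13, limma adjusted p = 5e-10), and 2 of its naive levels lay below 4.57. The array measured this host transcript and not the microRNA. The mature microRNA that the hairpin gives rise to (mmu-miR-155-5p, RefSeq, GRCm38.p6, chr16:84714143-84714165, plus strand) is shown because its seed, bases 2 to 8 in capitals, largely determines which messages it can pair with.
mmu-miR-155-5p: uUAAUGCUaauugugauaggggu
Crabp2, a carrier of retinoic acid, rose from 5.27, 5.65 and 5.60 to 9.13 and 9.74 (3.93, SE 0.20, limma adjusted p = 1.5e-08), and Hivep3 (3.60), Lad1 (3.57), the adhesion molecule gene Alcam (3.40), Sema7a (3.33) and Pros1 (3.24), the gene of protein S, rose over 8-fold. Spin4 rose by 4.41 from naive levels of 3.91, 3.71 and 3.72, all below 4.57. Among the falls Dzip1 (-3.83), Ampd3 (-3.80), the linker histone gene H1f2 (-3.75), Gadd45a (-3.49), Sit1, a transmembrane adaptor of lymphocytes (-3.43), and Ahnak (-3.24) were over 8-fold. A530021J07Rik fell by 4.06 to 3.11 and 3.02, both below 4.57. Mt1, a metallothionein, stood at 10.42, 9.63 and 8.97 and 6.15 and 7.10 (-3.05), again highest in naive replicate 1.

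Genes of B and plasma cells were also among the large falls, with Jchain (12.27, 12.08 and 11.92 against 8.76 and 9.21, -3.10) and H2-Ob (-2.97). Of 14 B cell markers 5 were lower and 0 higher (median -0.40). Cd79b (-1.59), Ighm (-1.56) and Cd79a (6.46, 6.87 and 6.90 against 4.82 and 5.86, -1.40) fell, Ms4a1, the gene of CD20, was not called (-0.95), and Ebf1 was below 4.57 in all 5 arrays. In all 9 of the 14 were not called, among them Cd74 (-0.35), H2-Aa (-0.49) and Fcer2a (0.87). The summed level of the list was 17319, 16945 and 16048 in the naive and 6417 and 8972 in the activated arrays. Ighm had the highest level of the list in every array (13.60, 13.50 and 13.39 against 11.75 and 12.11) and weighed most in this sum. Of 7 plasma cell markers 2 fell, Jchain and Mzb1 (-0.88), 1 rose, Xbp1 (0.63), and 4 were not called. Their summed level was 8336, 7433 and 6757 against 4629 and 4510. Jchain had the highest naive levels of this list and weighed most in the naive sums, so the sum does not describe the list as a whole. Of 11 neutrophil genes 4 fell, 0 rose and 7 were not called, among these S100a8 (-0.63), Camp (0.09) and Ltf (0.04). The falls were those of Prtn3 (-1.36), Ctsg (-1.24), Elane (-0.49) and Mpo, a granule enzyme of myeloid precursors. Mpo stood at 8.34, 7.67 and 6.79 and 5.32 and 5.32 (-2.28), highest in naive replicate 1. The list summed to 981, 810 and 763 against 512 and 494. Of 8 platelet genes 1 fell, Itgb3 (-1.28), and 0 rose, and Ppbp was below 4.57 in all 5 arrays; without activated replicate 2, 2 platelet genes were called lower. The T cell markers were high in every array: of 10 measured 7 fell and 2 rose (1 without activated replicate 2, naive replicate 1 or naive replicate 2), and their median level was 11.71, 11.77 and 11.88 in the naive and 11.37 and 11.40 in the activated arrays. Their summed level was 37503, 39455 and 41733 against 26523 and 27414. Of 3 CD4 T cell markers 2 fell, of 2 CD8 markers 2 fell, of 2 gamma delta markers 1 fell, and of 9 regulatory T cell markers 3 rose and 3 fell. The part of other cells in the falls described was not tested.

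**Figure D4:**
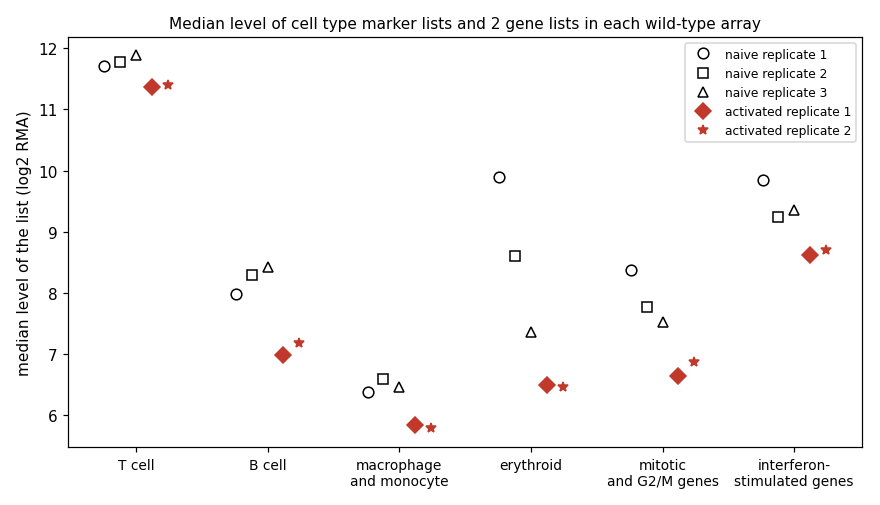
Median log2 RMA level of 4 marker lists and 2 functional groups in each wild-type array; open symbols are naive replicates 1 to 3 and filled symbols activated replicates 1 and 2. Activated arrays lie below all naive arrays in each list, and the naive arrays spread most in the erythroid list (9.89, 8.60 and 7.36).

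The same comparison in crbn-/- cells used other arrays, 3 activated and 3 naive, and its values are set beside those above. Changes in wild-type and then knockout cells were 4.65 and 5.47 for Il2, 3.75 and 4.22 for Ifng, 5.84 and 5.81 for Ccl3, and 4.07 and 4.24 for Irf4. They were -4.61 and -4.76 for Dusp1, -2.94 and -3.59 for Klf2 and 2.90 and 3.37 for Il2ra. For whole groups the median change was 1.20 and 1.39 in ribosome biogenesis, -1.21 and -1.33 in quiescence, 0.89 and 1.76 in chemokines, -0.98 and -0.51 in mitosis and -1.89 and -0.29 in erythroid genes. A difference in response between the genotypes, tested as the interaction in limma, was called for 0 of 18194 genes (0%), with 2515 genes at an unadjusted p under 0.05 and a lowest adjusted p of 0.122. A test without moderated variances and a test with the replicate number as a block each called 1 gene, and 4 genes were called without naive replicate 3 and 1 without activated replicate 2. The smallest p-values belonged to Adam24, Hspa1a, Cxcl3, Afp and Bambi-ps1, all at a limma adjusted p of 0.122. Hspa1a, a heat shock gene, changed by -1.20 in wild-type and 0.12 in knockout cells, and Cxcl3, whose wild-type levels were all below 4.57, by 0.66 and 1.90.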

How the data were processed

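RNA from 11 samples of purified spleen T cells was measured on 1-colour Affymetrix arrays. The deposited values are log2 expression levels that, per the submitters' processing notes, were made by the authors with GCOS, Partek and RMA; their versions and settings are not given in these notes or labels. RMA brings all arrays to one distribution, so a change is relative to the other RNA of the same array. The column medians of the deposited table lay between 5.84 and 5.89, its values ran from 2.32 to 15.0, and it gives no read depth or detection call, so the number of arrays limits the precision.

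Of 45101 probe sets 34958 have 1 gene symbol, 932 several and 9211 none in the platform annotation. For each of 18194 genes the probe set with the highest mean level in the 11 arrays was used, and of the 8582 other probe sets of called genes 271 were called in the opposite direction (238 genes). A model with 4 group means was fitted to all 11 arrays in limma 3.58.1 (R 4.3.3), and p-values were adjusted over all genes by the Benjamini-Hochberg method, with a call at an adjusted p under 0.05. The median SE of a change was 0.099 log2. The fit was tested on simulated data. Python 3.11.15 with pandas 2.3.3 made the tables and matplotlib 3.10.9 the figures.

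The 51 functional groups and 13 marker lists held 1504 genes, of which 1409 were measured; genes and lists were chosen with earlier results of these data known. Named genes were drawn from Crbn, the 25 largest rises and falls without overlap, the largest changes and the weakest calls of each group, every member of the small families, the genotype differences of smallest p, and members of a group where it is described. Promoter windows of 250 bases before the start and the microRNA sequence were taken from RefSeq tables (GRCm38.p6). The alternatives tried were all probe sets, their mean, a filter on low levels, other variance models, the 5 wild-type arrays alone, array weights, another normalization or centring, the replicate number as a block, a test against a change of 0.5 log2, and leaving out each wild-type array. Leaving out an activated array leaves 1, which is then assumed to vary like the other groups.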

Additional observations from a re-analysis of the deposited data

How the results depend on the processing

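Limits were the number of activated arrays, 2, and the missing detection calls, and no group cultured without the antibodies was analysed here. Counts of calls, 7475 in all with 3672 higher and 3803 lower, were 13208 (6608 and 6600) over all 34958 probe sets and 2392 (1025 and 1367) in limma's test against a change of 0.5 log2. With only the 5 wild-type arrays 6483 genes were called (3016 higher and 3467 lower). At least 2-fold changes, 1694 in all with 673 higher and 1021 lower, numbered 2929 (1194 and 1735) over all probe sets. With the mean of each gene's probe sets they numbered 1283 (523 and 760). Leaving out 1 wild-type array gave 6627 to 7243 calls (3096 to 3521 higher, 3303 to 3722 lower) and 1559 to 1923 at least 2-fold changes (525 to 926 higher, the lowest without activated replicate 2 and the highest without activated replicate 1, and 997 to 1075 lower). The genotype difference, called for 0 genes, was called for 1 without moderation, and for 0 to 4 when 1 array was left out (4 without naive replicate 3, 1 without activated replicate 2). The labels tie no replicate number to an animal or a day, so the numbers were not treated as pairs. Deviations of same-numbered arrays correlated between -0.299 and 0.391. In wild-type cells the naive and activated arrays of the same number correlated at -0.299 (number 1) and -0.178 (number 2). Each knockout naive array correlated best with the knockout activated array of its own number (0.087 to 0.270). Same-numbered naive arrays of the 2 genotypes correlated at 0.391, 0.016 and 0.314 for numbers 1, 2 and 3. With the replicate block 7576 genes were called (3678 higher, 3898 lower) and the genotype difference for 1. Some values changed sign: the median of the AP-1 family was -0.08 without activated replicate 2 (-0.08 to 0.25 when 1 array was left out), and that of cytosolic ribosomal proteins 0.01 with the mean of probe sets, 0.02 after another quantile normalization, 0.00 after median centring and 0.01 without activated replicate 2 (-0.03 to 0.01 when 1 array was left out). The plasma cell median was 0.04 over all probe sets, and with the mean of probe sets Irf3 stood at 0.06 (limma adjusted p = 0.557) and Zbtb16 at -0.57 (0.00043). The causes were not tested. Of the 385 called genes named, 281 were called under every alternative that tested them, and 25 lost the call when 1 array was left out.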
